A study of Mus musculus with 6 samples.

Results

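The subunits of the ionotropic glutamate, GABA-A and glycine receptors were described in the mouse carotid body and set against the adrenal medulla. Genes were chosen by symbol alone, as Gria1 to Gria4, Grik1 to Grik5, the Grin1, Grin2 and Grin3 genes, the GABA-A subunits (Gabra, Gabrb, Gabrg, Gabrd, Gabre, Gabrp, Gabrq and Gabrr) and Glra1 to Glra4 with Glrb. The rule found 40 genes among the 26728 entries of the deposited table. It reads symbols and no values, but it was proposed with earlier results of these data known. The carotid body, a chemosensory organ at the fork of the carotid artery, and the adrenal medulla, the inner part of the adrenal gland that secretes catecholamines, were each sampled in 3 libraries from untreated adult C57/BL6 mice (Charles River). Each library is a pool of tissue, and by the design note a pool draws on 10 mice and holds 18 carotid bodies or 10 adrenal medullas, so n counts pools and a p-value measures only the spread between pools.

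These receptors are channels that open when a transmitter binds. Glutamate opens the AMPA, kainate and NMDA receptors and lets cations in, which excites the cell, whereas GABA and glycine open chloride channels, which inhibit or excite depending on the chloride gradient. Every receptor is built of several subunits, and the subunits a cell makes set which channels it can assemble. Chromaffin cells of the adrenal medulla are known to carry GABA-A receptors, and GABA and glutamate have been studied as modulators of the carotid body.

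The libraries held 13266225 to 16445925 reads, and on an mRNA of 5 kb 1 read was worth 0.0122 to 0.0151 RPKM. RPKM, reads per kilobase at a fixed library depth, is the unit of the deposited values. Of 11 tested genes of glomus and chromaffin cells, such as Th and Chga, 1 was higher and 7 were lower in the carotid body (summed level 2605 to 3495 RPKM in carotid body pools and 17442 to 29053 in adrenal medulla pools). Adrenal cortex markers were lower in the carotid body in 11 of 11 cases (94.5 to 214 RPKM against 13691 to 17978 RPKM in the adrenal medulla, with Cyp17a1 at 0 in the carotid body). Glia markers were higher in the carotid body in 10 of 10 cases (596 to 760 RPKM against 129 to 144 RPKM), as were 8 of 8 fibroblast markers (2249 to 2964 RPKM against 68.1 to 179 RPKM), 8 of 9 smooth muscle or pericyte markers (3160 to 3719 RPKM against 138 to 168 RPKM) and 7 of 10 endothelial markers (435 to 535 RPKM against 156 to 206 RPKM). Markers of ganglion neurons were higher in 3 of 11 cases (692 to 912 RPKM against 541 to 801 RPKM). The remaining lists gave 2 of 4 higher for leukocytes, 1 of 3 higher for skeletal muscle, 0 of 6 called for adipocytes and 1 of 1 lower for epithelium. Adrenal medulla pool 3 stood apart, with 7 reads of 4 Y-linked genes against 3060 and 3277 in the other adrenal medulla pools. Carotid body pools 1 to 3 held 1330, 2178 and 1292 such reads. The part that the sex of the mice has in the differences below, those of X-linked subunits included, was not tested. Adipocyte markers summed to 3641 RPKM in carotid body pool 2, against 391 and 880 RPKM in carotid body pools 1 and 3, and to 2223 RPKM in adrenal medulla pool 3, against 715 and 229 RPKM in pools 1 and 2. In whole tissue, fewer cells of a type and less RNA per cell cannot be told apart, and the part these cell types have in the differences below was not tested.

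Most receptor subunits were low in both tissues. Of the 40 genes, 5 had 0 reads in all libraries, 35 had a read in at least 1, 21 had a read in every library, and 4 passed 10 RPKM in any library. A level of at least 1 RPKM in at least 3 libraries, the requirement for the test, was met by 13. Over all tested genes the median of the mean level was 8.29 RPKM in the carotid body and 7.79 RPKM in the adrenal medulla.

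**Figure D1:**
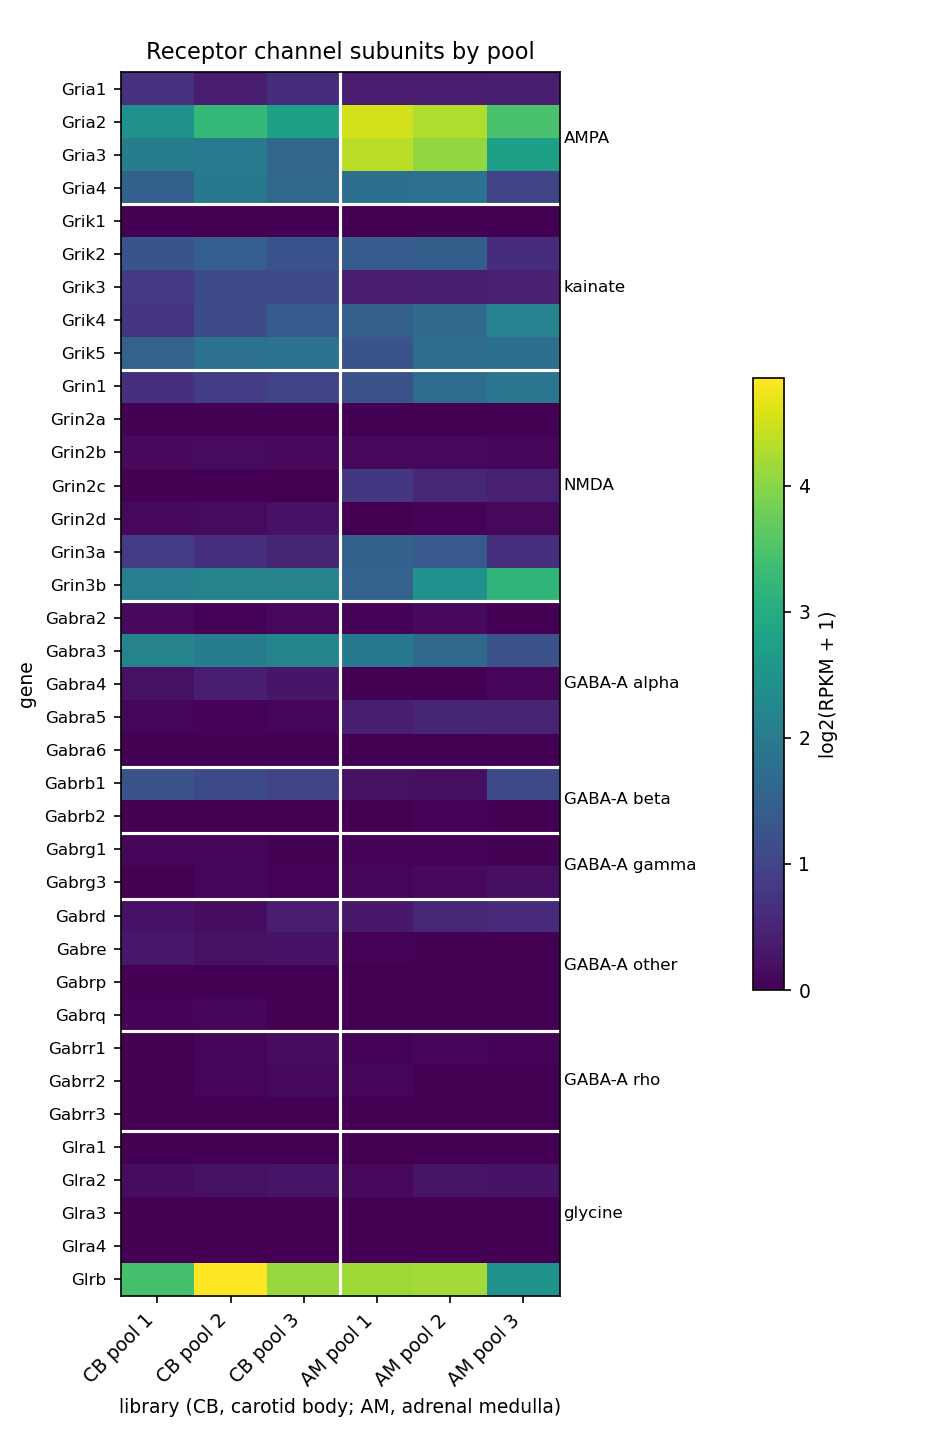
Level of 37 of the 40 subunit genes in each pool, as log2(RPKM + 1) in color, with the 3 carotid body (CB) pools left of the 3 adrenal medulla (AM) pools and genes grouped by receptor. The brightest rows are Gria2, Glrb and, mainly in AM pools, Gria3. Grin3b and Gabra3 are alike in CB pools, and Grin3b is at its brightest in AM pool 3. Most other rows are dark in both tissues.

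The comparison asks which receptor subunits differ between the carotid body and the adrenal medulla, tested with limma on log2(RPKM + 1) over 13357 genes with a gene called where its Benjamini-Hochberg adjusted p fell under 0.05. Differences are carotid body minus adrenal medulla on that scale, which understates the change of low genes. Of the 13 tested subunits, 3 were lower in the carotid body (Gria2, Gria3 and Grin1), 0 were higher and 10 were not called. The 3 are 23.1% of the tested subunits, near the 21.9% of all tested genes called in either direction. Of all tested genes, 7.73% were called lower and 14.2% higher in the carotid body. At an unadjusted p under 0.05, limma put 2 subunits higher and 4 lower, and limma's voom on recovered reads likewise put 2 higher and 4 lower. At an adjusted p under 0.05 voom put 0 higher and 3 lower. The median difference was -0.07 over the 13 subunits and 0.02 over all tested genes. Grin1 met the level requirement through the adrenal medulla pools alone, which makes a lower carotid body value part of its selection. For 5 of the 13, all pools of one tissue lay above all pools of the other (Gabra3 with the carotid body above, Gria2, Gria3, Grik4 and Grin1 with the adrenal medulla above), beside 37% of all tested genes, 22.3% with the carotid body and 14.7% with the adrenal medulla above. Adrenal medulla pool 3 was the lowest adrenal medulla pool for 8 of the 13 subunits and the highest for the other 5, against 52.3% and 31.6% of all tested genes.

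**Figure D2:**
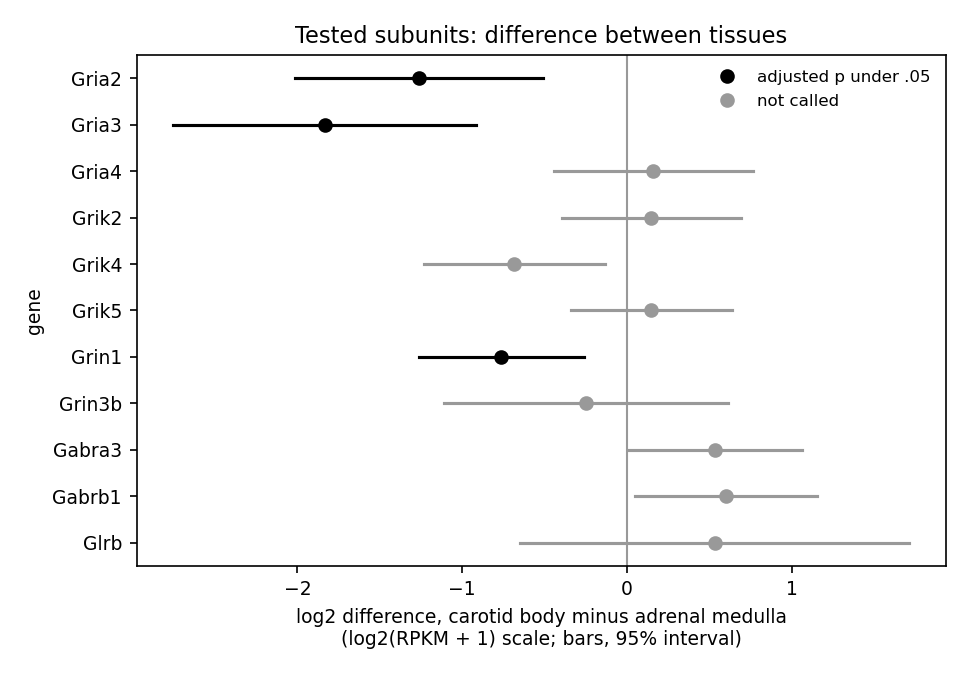
Log2 difference (carotid body minus adrenal medulla, log2(RPKM + 1) scale) of 11 of the 13 tested subunits, with 95% intervals from the limma fit. Black points (Gria2, Gria3 and Grin1) passed an adjusted p of 0.05 and lie left of 0; gray points did not pass.

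AMPA receptors carry most fast excitatory transmission, and their Gria2 subunit, once its RNA is edited, keeps calcium out of the channel. Gria2 had 4.52, 8.42 and 5.81 RPKM in carotid body pools 1 to 3, against 21.9, 18.4 and 9.99 RPKM in adrenal medulla pools 1 to 3. The highest carotid body pool lay under the lowest adrenal medulla pool. Its mean was 6.25 ± 1.98 RPKM in the carotid body and 16.8 ± 6.13 RPKM in the adrenal medulla (n = 3 pools each, SD). On the log2 scale this was -1.26 ± 0.33 (SE), with a limma adjusted p of 0.0252. That call ended without carotid body pool 1 (limma adjusted p = 0.102) or 3 (0.0807) and without adrenal medulla pool 1 (0.0754) or 2 (0.0908), with differences of -1.04 to -1.57 over all single pools left out. With carotid body pool 2 and adrenal medulla pool 3 both left out it was -1.78 (adjusted p = 0.00324).

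Gria3, an AMPA subunit encoded on the X chromosome, was also lower in the carotid body. It had 3.17, 2.94 and 2.05 RPKM in the carotid body, against 19.4, 15.7 and 5.67 RPKM in the adrenal medulla. The tissues did not overlap, although adrenal medulla pool 3 stood well under pools 1 and 2. The mean was 2.72 ± 0.595 RPKM for the carotid body and 13.6 ± 7.10 RPKM for the adrenal medulla (SD, n = 3 pools each), 5.0-fold lower in the carotid body. The log2 difference was -1.84 ± 0.40 (SE; limma adjusted p = 0.0112), and it stayed called without each single pool, at -1.52 to -2.33, and with carotid body pool 2 and adrenal medulla pool 3 both left out (-2.37, adjusted p = 0.00183).

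Of the remaining AMPA subunits, Gria4 was not called and Gria1 was not tested. Gria4 had 1.82, 2.89 and 2.13 RPKM in the carotid body, against 2.47, 2.55 and 0.992 RPKM in the adrenal medulla (log2 difference 0.16, 95% interval -0.44 to 0.77, limma adjusted p = 0.753). Its direction turned to -0.11 without adrenal medulla pool 3. Gria1, the subunit dominant in many brain synapses, was read too rarely for the test, with 0.623, 0.314 and 0.547 RPKM in the carotid body and 0.285, 0.316 and 0.328 RPKM in the adrenal medulla, and its pools overlapped. Summed over Gria1 to Gria4, the AMPA subunits came to 10.1, 14.6 and 10.5 RPKM in the carotid body and to 44.0, 37.0 and 17.0 RPKM in the adrenal medulla. Gria2 was the largest part in 6 of 6 libraries, at 44.6% to 57.8% of the sum in the carotid body and 49.7% to 58.8% in the adrenal medulla. Gria3 made up 19.4% to 31.3% in the carotid body and 33.4% to 44.0% in the adrenal medulla, and Gria4 17.9% to 20.2% in carotid body pools and 5.60% to 6.90% in adrenal medulla pools. These shares compare levels per length, and the coverage along an mRNA is not known.

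**Figure D3:**
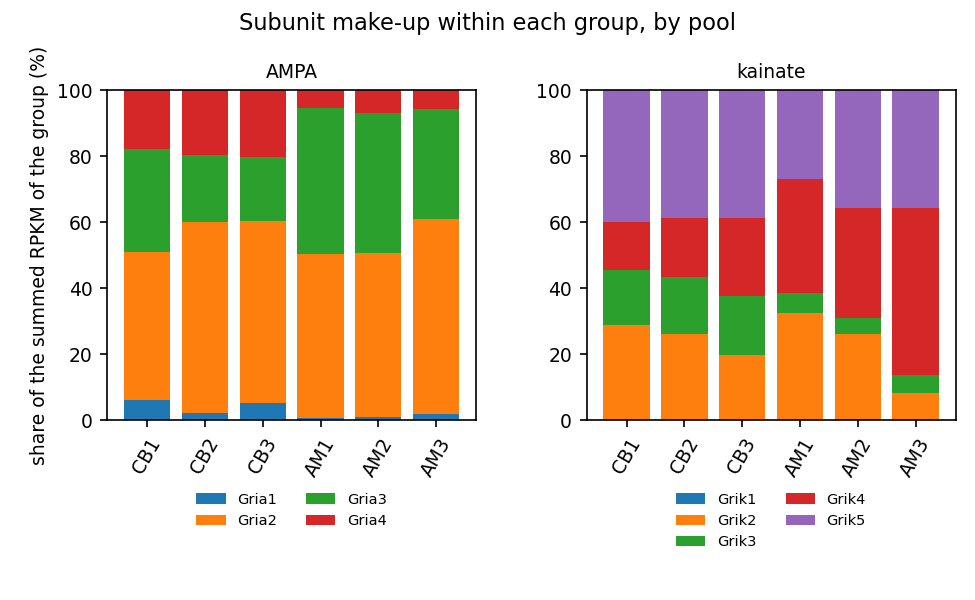
Share (%) of each gene in the summed RPKM of its receptor group, 1 bar per pool, carotid body (CB) left of adrenal medulla (AM). Gria4 fills 17.9% to 20.2% of the AMPA sum in CB pools and 5.60% to 6.90% in AM pools. Its own level overlapped between the tissues and was not called, and the AMPA sum was lower in all CB pools. Grik3 fills 16.5% to 17.6% of the kainate sum in CB pools and 4.95% to 6.09% in AM pools.

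The start of Gria2 is shown because it holds a recognizable regulatory sequence. The RefSeq window of GRCm38.p6, 250 bases before to 50 after the start, lies at chr3:80802786-80803085 on the minus strand, and its last 50 bases lie in a GENCODE transcript of the gene. Capitals mark the core of an RE1 element, the site known to bind the repressor REST at many neuronal genes, which was searched on both strands as AGCACC, any 2 bases, then GGACAGC, and lies here on the reverse strand.
Gria2: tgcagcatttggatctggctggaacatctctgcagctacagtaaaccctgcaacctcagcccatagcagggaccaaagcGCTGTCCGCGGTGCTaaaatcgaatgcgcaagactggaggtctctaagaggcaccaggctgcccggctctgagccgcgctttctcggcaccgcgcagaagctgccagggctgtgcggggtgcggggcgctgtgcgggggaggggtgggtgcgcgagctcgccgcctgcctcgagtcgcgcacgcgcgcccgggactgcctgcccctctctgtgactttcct
The match begins 171 bases before the start. It occurs in 10 of 32851 such windows (0.0304%) and in 1 of the 33 windows of the 29 subunit genes that the RefSeq table holds. A match is a description of letters and no evidence of binding.

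Kainate receptors act both at synapses and on transmitter release. Grik3, a low-affinity kainate subunit, had 0.778, 1.13 and 1.18 RPKM in the carotid body, against 0.311, 0.324 and 0.371 RPKM in the adrenal medulla. The carotid body pools all lay higher, 3.07-fold by the means, on 396 reads in carotid body pools and 132 in adrenal medulla pools. Grik3 fell under the level requirement, and with a requirement of 0.3 RPKM in 3 libraries limma called it higher in the carotid body (log2 difference 0.60, adjusted p = 0.0145). It also passed with no requirement (limma adjusted p = 0.00996) and with voom on recovered reads (1.58, adjusted p = 0.00649), a test chosen after the values were seen that called 21.7% of all genes.

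Grik4, a high-affinity kainate subunit, was lower in each carotid body pool than in any adrenal medulla pool, with 0.692, 1.17 and 1.58 RPKM in the carotid body, against 1.77, 2.19 and 3.43 RPKM in the adrenal medulla. The difference of -0.68 ± 0.24 (SE) was not called (limma adjusted p = 0.0802). With the labels' group number as a block it was called (adjusted p = 0.0206), in a fit that called 27% of all genes (10.2% as lower), as it was under quantile scaling (-0.88, adjusted p = 0.0473). Grik5, the other high-affinity subunit, averaged 2.34 ± 0.406 RPKM in the carotid body and 2.04 ± 0.587 RPKM in the adrenal medulla (n = 3 pools each, SD; 0.15, 95% interval -0.34 to 0.63, limma adjusted p = 0.717), and Grik2, which can form channels alone, averaged 1.47 ± 0.216 RPKM in carotid body and 1.29 ± 0.645 RPKM in adrenal medulla pools (0.15, -0.40 to 0.69, limma adjusted p = 0.747). The direction of both turned under quantile scaling, that of Grik2 also without adrenal medulla pool 3 and that of Grik5 without adrenal medulla pool 1. Grik1 had 0 reads in carotid body pools and 1 in adrenal medulla pools. The summed kainate level was 4.70 to 6.71 RPKM in the carotid body and 5.10 to 6.78 RPKM in the adrenal medulla, with Grik3 at 16.5% to 17.6% of it in the carotid body and 4.95% to 6.09% in the adrenal medulla.

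NMDA receptors need the Grin1 subunit together with Grin2 or Grin3 subunits. Grin1 had 0.589, 0.836 and 0.995 RPKM in the carotid body, against 1.29, 2.30 and 2.77 RPKM in the adrenal medulla. All carotid body pools lay lower, at a mean of 0.807 ± 0.204 RPKM against 2.12 ± 0.756 RPKM in the adrenal medulla (n = 3 pools each, SD). The log2 difference was -0.76 ± 0.22 (SE; limma adjusted p = 0.0375). It was no longer called when carotid body pool 1, 2 or 3 was left out (limma adjusted p = 0.129, 0.0858 and 0.0676), nor without adrenal medulla pool 2 (0.120) or 3 (0.0652), with carotid body pool 2 and adrenal medulla pool 3 both left out (0.101), or with no level requirement (0.0579). The annotation places an antisense gene, Grin1os, across 1307 exon bases of Grin1, and no protocol states that reads kept their strand, so reads of the pair cannot be told apart.

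Grin2c, the Grin2 subunit best known from cerebellar granule cells, was read in the adrenal medulla alone. It had 0 reads in each of the 3 carotid body pools, against 48, 31 and 28 reads (0.730, 0.444 and 0.348 RPKM) in adrenal medulla pools 1, 2 and 3. Every adrenal medulla pool lay above every carotid body pool. Set against a floor of 3 reads over the carotid body pools, 0.0141 RPKM, the level was at least 35.0-fold lower in the carotid body. With the 0.3 RPKM requirement limma called it lower (-0.58, adjusted p = 0.0109), although it met that requirement through the adrenal medulla pools alone. The other Grin2 genes were detected at under 0.2 RPKM. Grin2b was at 0.0825 to 0.10 RPKM in carotid body pools and 0.0647 to 0.0746 RPKM in adrenal medulla pools. Grin2d had 23 reads over the carotid body pools and 7 over the adrenal medulla pools, and Grin2a had 2 against 1. With the 0.3 RPKM requirement, 19 subunits were tested, and 1 was higher (Grik3) and 5 were lower in the carotid body (Gria2, Gria3, Grin1, Grin2c and Gabra5), beside 14.2% and 7.72% of all genes tested that way. Voom at the same requirement likewise gave 5 lower, the same genes, beside 7.61% of all genes. Grin2c and Gabra5 met the 0.3 RPKM requirement through the adrenal medulla pools alone, so a lower carotid body value is part of their selection. The counts of lower subunits are therefore not read as an excess over those shares.

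**Figure D4:**
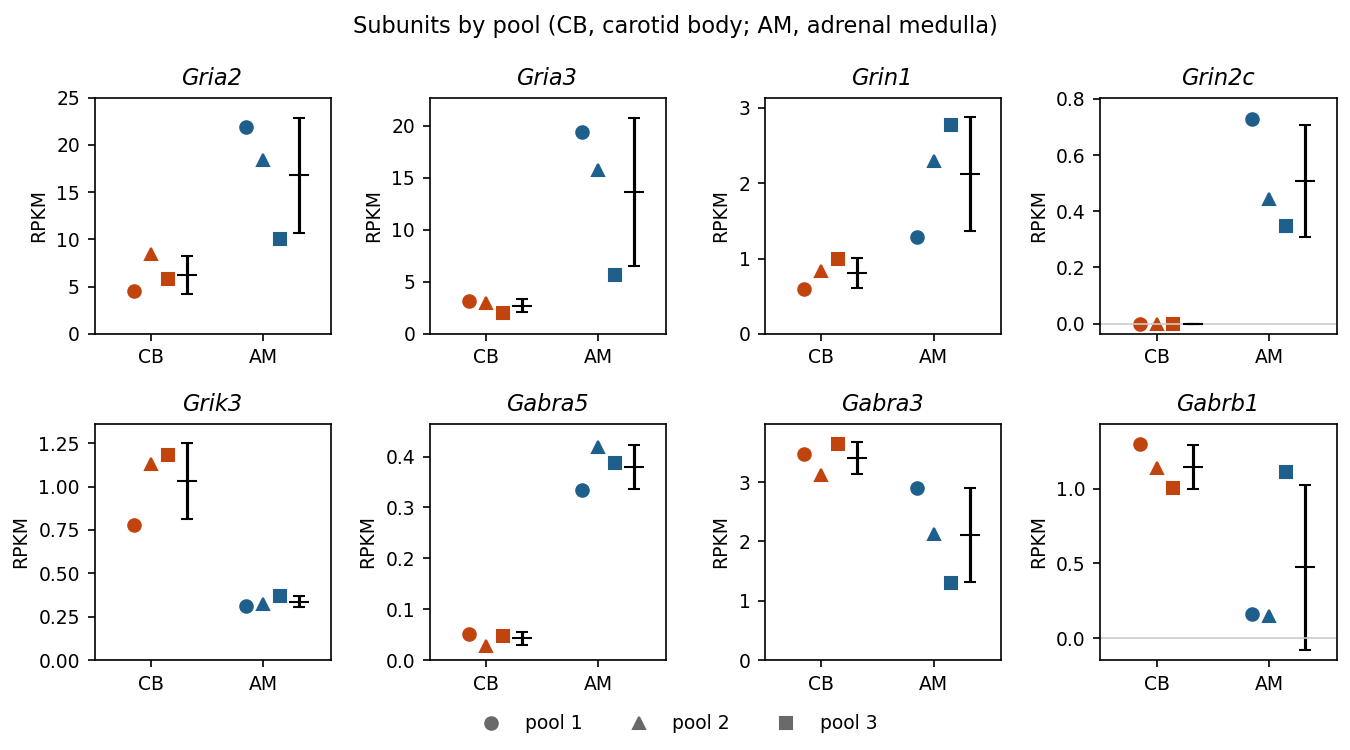
RPKM of 8 subunits in each pool (circle, triangle and square for pools 1, 2 and 3), carotid body (CB) left of adrenal medulla (AM), with the mean and SD (n = 3 pools) as black bars; scales differ between panels. Gria2, Gria3, Grin1, Grin2c and Gabra5 are lower in all CB pools, Grik3 and Gabra3 are higher in all CB pools, and AM pool 3 overlaps the CB pools for Gabrb1.

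Windows at the starts of Grin1 and Grin2c are shown beside that of Gria2 because limma called these 3 genes lower and they have a RefSeq window. The call of Grin2c came only with a lower level requirement or none. Those of Gria2 and Grin1 depended on single pools. Capitals mark GC boxes, searched as GGGCGG on both strands, which lie in 15 of the 33 subunit windows and in 35.7% of all 32851 windows. The Grin1 window lies at chr2:25319138-25319437 and that of Grin2c at chr11:115267194-115267493, both on the minus strand of GRCm38.p6.
Grin1: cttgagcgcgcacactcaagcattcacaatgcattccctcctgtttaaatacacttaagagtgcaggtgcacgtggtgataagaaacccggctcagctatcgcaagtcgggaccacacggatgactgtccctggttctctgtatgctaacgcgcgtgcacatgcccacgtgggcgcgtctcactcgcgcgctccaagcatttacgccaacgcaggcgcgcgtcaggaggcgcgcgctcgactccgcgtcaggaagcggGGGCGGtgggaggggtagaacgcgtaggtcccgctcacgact
Grin2c: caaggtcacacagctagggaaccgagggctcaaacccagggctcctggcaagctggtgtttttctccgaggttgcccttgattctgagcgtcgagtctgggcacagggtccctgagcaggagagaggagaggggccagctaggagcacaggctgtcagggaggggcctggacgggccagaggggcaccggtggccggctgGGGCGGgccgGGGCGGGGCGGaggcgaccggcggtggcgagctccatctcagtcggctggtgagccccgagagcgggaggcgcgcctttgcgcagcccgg
Grin1 held 1 GC box, 8 bases after the start. Grin2c held 3, of which a pair overlaps by 1 base, the first of them 50 bases before the start. The GC content was 60.7% for Grin1, 70.0% for Grin2c and 65.7% for Gria2, against a median of 52.7% over all windows. These windows were not compared with those of the other subunits, so no trait of the lower genes is read from the GC content. Neither window held the RE1 core.

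The Grin3 subunits lower the calcium flow of NMDA receptors, and Grin3b had the highest RPKM of the NMDA genes in 6 of 6 libraries. Grin3a had 0.812, 0.576 and 0.416 RPKM in the carotid body, against 1.79, 1.57 and 0.582 RPKM in the adrenal medulla, where pool 3 overlapped the carotid body pools. Grin3b had 3.21, 3.52 and 3.50 RPKM in the carotid body, against 1.88, 4.48 and 8.08 RPKM in the adrenal medulla, and was not called (-0.25, 95% interval -1.11 to 0.61, limma adjusted p = 0.728). Its direction turned without adrenal medulla pool 3 (0.15). The value of Grin3b is uncertain, since 1059 of its exon bases in the GENCODE annotation also belong to Tmem259 on the opposite strand. Tmem259 had 16.9, 29.4 and 30.6 RPKM in the carotid body, against 14.7, 22.2 and 47.1 RPKM in the adrenal medulla, and Grin3b was 0.115 to 0.190 times that level in carotid body pools and 0.128 to 0.202 times in adrenal medulla pools. Whether reads listed under Grin3b come from Tmem259 was not tested.

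GABA-A receptors are chloride channels that most often join alpha, beta and gamma subunits. Gabra3 had the highest RPKM of the alpha genes in 6 of 6 libraries, at 73.7% to 86.9% of the alpha sum in the carotid body and 74.6% to 88.3% in the adrenal medulla. Gabra3 had 3.48, 3.11 and 3.64 RPKM in the carotid body, against 2.90, 2.12 and 1.31 RPKM in the adrenal medulla. The carotid body pools lay higher without overlap, yet the difference of 0.54 (95% interval 0.01 to 1.06) missed the threshold (limma adjusted p = 0.148).

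Among the less abundant alpha subunits, Gabra5, known from extrasynaptic receptors of the hippocampus, was read more in the adrenal medulla. Gabra5 had 2, 1 and 2 reads in the carotid body, against 12, 16 and 17 reads in the adrenal medulla (0.0426 ± 0.0126 RPKM in carotid body and 0.380 ± 0.0430 RPKM in adrenal medulla pools; SD, n = 3 each), and limma with the 0.3 RPKM requirement called it lower (-0.40, adjusted p = 0.0219). It met that requirement through the adrenal medulla pools alone, and an antisense transcript shares 148 of its exon bases.

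Gabra4, an alpha subunit often found with delta, and Gabre, the epsilon subunit, had more reads in the carotid body. Gabra4 had 10, 18 and 14 reads in the carotid body, against 1, 0 and 4 in the adrenal medulla, and Gabre had 10, 6 and 8 reads in carotid body pools, against 1, 1 and 0 in adrenal medulla pools. With no level requirement limma called both higher in the carotid body (log2 difference 0.270, adjusted p = 0.0229 for Gabra4 and 0.235, 0.0127 for Gabre). Neither met the 0.3 RPKM requirement, so limma and voom did not test them there. The read ratio of Gabre, per read of depth, was 12.2 (95% exact binomial interval 3.04 to 107, counting error only). With no level requirement, 35 subunits were tested. Of these, 3 were higher (Grik3, Gabra4 and Gabre) and 4 were lower in the carotid body (Gria2, Gria3, Grin2c and Gabra5), beside 11.3% and 5.73% of all genes, 17% in either direction.

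For Gabrb1, a beta subunit, 1 pool decided the call. It had 1.30, 1.13 and 1.00 RPKM in the carotid body, against 0.160, 0.151 and 1.11 RPKM in adrenal medulla pools 1, 2 and 3. The first pair of adrenal medulla pools lay far below the carotid body and pool 3 among it. With all pools the difference of 0.60 was not called (limma adjusted p = 0.123). Without adrenal medulla pool 3 it was 0.89 and called (limma adjusted p = 0.00314), in a fit that called 25.9% of all genes. Of the pools left in that fit, only those of the carotid body reached the 1 RPKM of the level requirement. Gabrb1 and Gabra4 share 46 exon bases on opposite strands.

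Several other GABA-A subunits were barely read. The delta subunit Gabrd had 17 reads over the carotid body pools and 34 over the adrenal medulla pools, with overlapping pools. Gabra2, Gabrb2, Gabrg1, Gabrg3, Gabrp and Gabrq had 0 to 7 reads over the pools of a tissue. Gabrr1 and Gabrr2, the rho subunits known from the retina, had 6 and 3 reads in the carotid body, against 4 and 1 in the adrenal medulla. Gabra6 and Gabrr3 had 0 reads in all libraries, which allows up to 0.0276 and 0.0475 RPKM in the carotid body and 0.0271 and 0.0467 RPKM in the adrenal medulla at 3 reads over the pools of a tissue.

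The glycine receptor genes were uneven in both tissues. Glrb, the beta subunit that ties the receptor to gephyrin and forms no channel of its own, had the highest carotid body mean of the 40 genes. It had 9.83, 27.9 and 16.3 RPKM in the carotid body, against 16.9, 17.1 and 4.54 RPKM in the adrenal medulla. The pools overlapped widely, and the difference of 0.53 (95% interval -0.65 to 1.71) was not called (limma adjusted p = 0.554) and became -0.035 without adrenal medulla pool 3. Of the alpha subunits, which bind glycine and form the channel, only Glra2 was read, at 0.124, 0.163 and 0.208 RPKM in the carotid body and 0.0805, 0.202 and 0.175 RPKM in the adrenal medulla. Glra1, Glra3 and Glra4 had 0 reads in all libraries. Glra2 was thus 0.00583 to 0.0128 times the level of Glrb in the carotid body and 0.00475 to 0.0386 times in the adrenal medulla, per length.

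Genes whose products bind glutamate receptors were called in both directions. Of 14 tested auxiliary and scaffold genes, 1 was higher and 4 were lower in the carotid body, and 9 were not called, beside 14.2% of all tested genes called higher and 7.73% called lower. Gsg1l, an auxiliary subunit of AMPA receptors, had 0.632, 0.327 and 0.606 RPKM in the carotid body, against 33.3, 37.7 and 50.5 RPKM in the adrenal medulla. Its pools were far apart, with a log2 difference of -4.76 ± 0.23 (SE) and a limma adjusted p of 1.10e-05. Dlg2, the scaffold PSD-93, averaged 1.03 ± 0.147 RPKM in the carotid body and 6.84 ± 1.08 RPKM in the adrenal medulla (-1.94, limma adjusted p = 0.000197; n = 3 pools each, SD). Cacng3, a transmembrane AMPA receptor regulatory protein, averaged 0.147 ± 0.103 RPKM in the carotid body and 2.22 ± 0.964 RPKM in the adrenal medulla (-1.45, limma adjusted p = 0.00162). Shisa9, another AMPA auxiliary subunit, averaged 0.511 ± 0.202 RPKM in the carotid body, against 3.00 ± 1.44 RPKM in the adrenal medulla (-1.35, limma adjusted p = 0.00808). Gsg1l, Cacng3 and Shisa9 passed the level requirement through the adrenal medulla pools alone. Homer2, a postsynaptic scaffold, was the gene that was higher in the carotid body, at 5.02 ± 0.575 RPKM against 1.13 ± 0.400 RPKM in the adrenal medulla (1.51, limma adjusted p = 0.00103). All 5 calls stayed without each single pool. The list's median difference was -0.16.

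**Figure D5:**
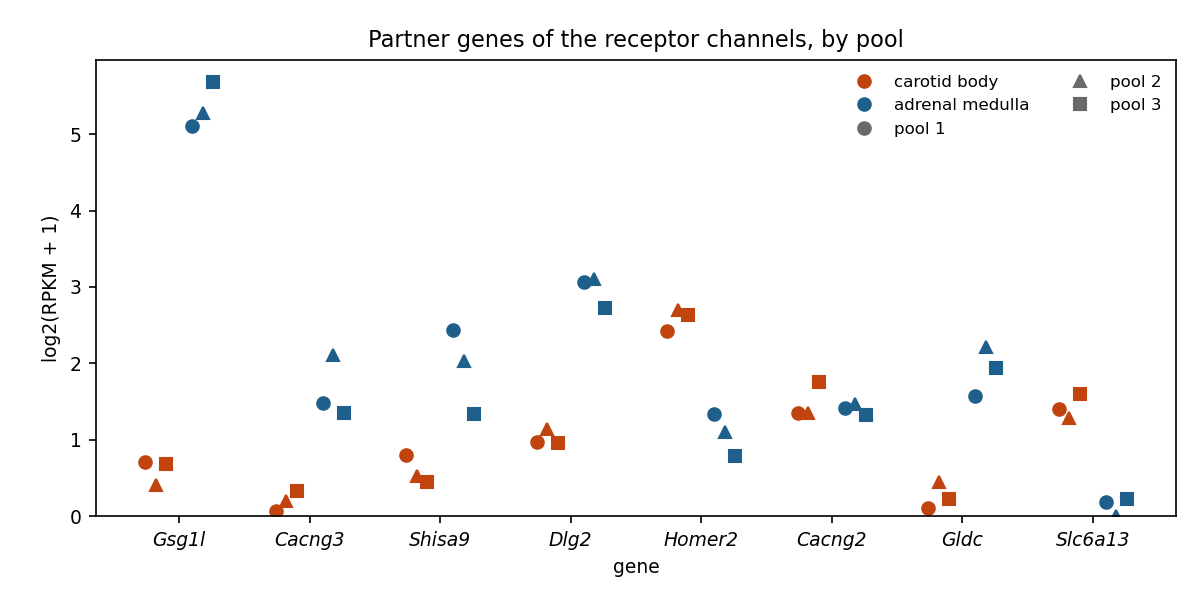
Level, as log2(RPKM + 1), of 8 partner genes in each pool, carotid body points left of adrenal medulla points within each gene. Gsg1l, Cacng3, Shisa9, Dlg2 and Gldc are lower in all carotid body pools, Homer2 and Slc6a13 are higher in all carotid body pools, and Cacng2 overlaps.

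Genes that supply and clear glutamate were called in 3 of 10 tested cases, beside 21.9% of all tested genes. Slc17a8, the vesicular glutamate transporter VGLUT3, averaged 2.18 ± 0.447 RPKM in the carotid body and 0.712 ± 0.260 RPKM in the adrenal medulla (n = 3 pools each, SD; 0.89 ± 0.19 SE, limma adjusted p = 0.010). Slc1a5, a carrier of glutamine and other neutral amino acids, was also higher (1.96, limma adjusted p = 0.00690). Gls2, a glutaminase, was lower (-0.63, limma adjusted p = 0.0423). That call was lost without each single pool except adrenal medulla pool 3 (0.0601 to 0.140), with the replicate block (0.0518), with a pseudocount of 0.1 RPKM (0.0514), with no level requirement (0.0523) and with voom (0.0603). Slc17a8 passed the level requirement through the carotid body pools alone, and Gls2 through the adrenal medulla pools alone. The other 7 genes were not called, and the median of the 10 was 0.38.

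Genes that supply and clear GABA and glycine were called in 4 of 5 tested cases, 1 higher and 3 lower in the carotid body, beside 14.2% higher and 7.73% lower among all tested genes. Nothing about the list is read from 5 genes. Slc6a13, the GABA transporter GAT2, had 1.63, 1.44 and 2.03 RPKM in the carotid body, against 0.138, 0 and 0.170 RPKM in the adrenal medulla (1.29, limma adjusted p = 0.000471). It passed the level requirement through the carotid body pools alone. Gldc, which breaks glycine down, had 0.0727, 0.358 and 0.169 RPKM in the carotid body, against 1.96, 3.62 and 2.84 RPKM in the adrenal medulla (-1.65, limma adjusted p = 0.000564), and passed it through the adrenal medulla pools alone. Abat, the transaminase that degrades GABA, averaged 13.6 ± 5.86 RPKM in the carotid body and 33.6 ± 8.32 RPKM in the adrenal medulla (n = 3 pools each, SD; -1.32, limma adjusted p = 0.0295), a call lost without carotid body pool 1 (0.0647) or adrenal medulla pool 2 (0.110) and with no level requirement (0.0510). Aldh9a1, which can make GABA from an aldehyde, differed by -0.81 (limma adjusted p = 0.0245) and lost its call without each single pool except adrenal medulla pool 3, at limma adjusted p of 0.0565 to 0.0865. The list's median was -0.81. The GABA-making enzyme genes Gad1 and Gad2, named after their values were seen, stayed under the level requirement. Gad2 had 2.61, 0.951 and 1.54 RPKM in the carotid body and 0.476, 0.822 and 0.735 RPKM in the adrenal medulla. Gad1 had 0.917, 1.24 and 0.417 RPKM in the carotid body and 0.438, 0.173 and 0.0941 RPKM in the adrenal medulla, with overlapping pools. The vesicular GABA transporter gene Slc32a1 had 0 reads in all libraries.

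Of the other partner lists, 1 of 2 tested metabotropic receptor genes, 2 of 15 genes for inhibitory receptor anchoring and trafficking and 1 of 7 chloride transporter genes were called, beside 21.9% of all tested genes. Grm7, a metabotropic glutamate receptor, was lower in the carotid body (0.227 ± 0.119 RPKM against 1.73 ± 0.550 RPKM in the adrenal medulla; n = 3 pools each, SD; -1.14, limma adjusted p = 0.00238), and passed the level requirement through the adrenal medulla pools alone. Gabbr1, a subunit of the GABA-B receptor, was the other tested metabotropic gene and was not called (7.35 ± 2.75 RPKM in the carotid body and 5.32 ± 0.563 RPKM in the adrenal medulla; limma adjusted p = 0.446). Of 15 genes for anchoring and trafficking of inhibitory receptors, Trak2, a trafficking adaptor, was higher (0.99, limma adjusted p = 0.0162) and Plcl2, a catalytically inactive phospholipase C relative, was lower (-1.53, limma adjusted p = 0.000597), with a median of 0.00 over the list. The call of Trak2 ended without carotid body pool 1 (limma adjusted p = 0.0643) or 2 (0.0594). Of 7 chloride transporter genes, Slc12a4, a potassium-chloride cotransporter, was higher in the carotid body (1.19, limma adjusted p = 0.00595), 0 were lower and 6 were not called, with a median of 0.01.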

How the data were processed

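RNA was sequenced from 3 carotid body and 3 adrenal medulla pools. Per the labels' protocols, the RNA was amplified (Amino Allyl MessageAmp II aRNA kit) before library construction. Bowtie 0.9.8 and the build mm9 are named in the submitters' processing notes. The authors deposited RPKM values with an mRNA length, and all 40 subunits have one.

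RPKM times length, divided by its smallest value in the library, was whole within 0.01 for 106276 of 106276 values above 0 and was taken as reads; reads of all entries summed to the implied depth in 6 of 6 libraries. Intervals on reads cover counting error only.

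limma 3.58.1 in R 4.3.3 tested log2(RPKM + 1), a pseudocount of 1, with a variance trend, over 13357 genes of at least 1 RPKM in at least 3 libraries. All adjusted p-values are limma's, Benjamini-Hochberg over all genes tested, two-sided. The fit was checked on simulated reads without outlying pools, so that check does not cover the spread between these pools. Alternatives changed the pseudocount, the filter, the scaling, the test and the libraries.

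Deviations from the tissue mean correlated between pools of the same number (r = 0.259, 0.128 and 0.473 for numbers 1, 2 and 3). They are taken from the mean of the same pools, so these correlations depend on each other and cannot decide whether pools are paired. The reported fit did not pair pools, and the group number served as a block in an alternative fit only. Carotid body pool 2 and adrenal medulla pool 1, with different numbers, reached r = 0.291. Carotid body pool 3 held 1292 Y-linked reads and adrenal medulla pool 3 held 7, and the labels do not say that a number marks the same mice.

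All subunits could be named, but 3 of the 40 are not reported here. Of the partner lists, called genes with the largest differences were named. The members, by a rule on symbols, and the lists were chosen with earlier results of these data known. Promoter windows and exon overlaps are of GRCm38 (RefSeq, GENCODE vM21). Python 3.11.15 with numpy 2.4.6, pandas 2.3.3, scipy 1.17.1 and matplotlib 3.10.9 did the rest.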

Additional observations from a re-analysis of the deposited data

How the results depend on the processing

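Gria3 was called lower under each alternative run, and Gria2 under each except the single pools named above. Over 11 tested subunits and 16 alternatives, 176 values in all, 149 kept direction and side of the threshold. Uncalled subunits that stayed uncalled count among the 149. Of the other values, 12 turned direction, 4 gained a call and 11 lost one, all of the last being values of Gria2 and Grin1. Subunits called higher numbered 0; they became 3 with no filter, 1 with the 0.3 RPKM filter, 1 with voom at that filter, 1 with carotid body pool 2 and adrenal medulla pool 3 both left out, and 0 to 1 without 1 pool. Subunits called lower numbered 3. They became 5 with the 0.3 RPKM filter, 5 with voom at that filter, and 1 to 3 without 1 pool. Both counts of 5 include Grin2c and Gabra5, which met that filter through the adrenal medulla pools alone. Over all genes, 1896 were called higher and 1033 lower; without 1 pool these were 1460 to 1999 and 692 to 1464, and without both named pools 2067 were lower. The share of calls higher in the carotid body was 64.7%. With median-ratio scaling it was 58.4%, with quantile scaling 55.0%, and 48.3% without both named pools.

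Signs of uncalled subunits turned as follows. Quantile scaling gave -0.0075 for Gria4, -0.038 for Grik2 and -0.028 for Grik5. Over single pools left out, Glrb ran between -0.035 and 0.88, Gria4 between -0.11 and 0.31, Grik2 between -0.11 and 0.28, Grik5 between -0.025 and 0.25, and Grin3b between -0.68 and 0.15. The turned end was the value without adrenal medulla pool 3 for Glrb, Gria4, Grik2 and Grin3b, and without adrenal medulla pool 1 for Grik5. With carotid body pool 2 left out beside adrenal medulla pool 3, Glrb became -0.40, Gria4 -0.24, Grik2 -0.19 and Grin3b 0.13. The cause was not tested. With the replicate block, 2257 genes were higher and 1356 lower, 4 subunits were lower, and Grik4 and Gls2 were the named genes whose call changed. The 27 untested subunits missed a level in RPKM; 5 of them had 0 reads and 7 more had under 10 reads in all.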
